A study of Mus musculus with 9 samples.

Results

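Mouse endothelial cells that carried either of 2 forms of the co-activator TAZ were compared, as a single side, with cells that carried an empty vector. A gene was taken as shared by both constructs when all 6 TAZ libraries lay on the same side of all 3 control libraries. Of 13346 genes with enough expression to be tested, 2979 (22.3%) met this rule. In 1396 (10.5%) all 6 TAZ libraries were above the controls, and in 1583 (11.9%) all 6 were below. Over all 23744 genes of the table, without the minimum level, the rule gave 1643 genes above and 1706 below. The rule used the gene values themselves, so the lack of overlap in the chosen genes is a description and supports nothing by itself.

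The cells were MS1, a line of endothelial cells from the mouse pancreas, immortalised with the SV40 large T antigen. Each of the 3 groups had 3 libraries of poly-A RNA. Control cells carried the lentiviral backbone pCDH-puro, the group labelled TAZ4A carried pCDH-TAZS4A, and the group labelled TAZ-CAMTA1 carried pCDH-TAZ-CAMTA1. All groups thus shared the line and the vector family. The labels give no passage number or time after infection, and nothing says whether replicate libraries were grown as separate cultures. P-values therefore measure only the spread between these libraries, which may be technical.

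TAZ, encoded by Wwtr1, is a transcriptional co-activator with no DNA-binding domain of its own. The kinases of the Hippo pathway phosphorylate it on serines and so keep it out of the nucleus, and in the nucleus it acts mainly by binding TEAD transcription factors. In TAZ4A the serines that these kinases modify are changed to alanine. Epithelioid hemangioendothelioma, a cancer of vessel cells, is characterised by the fusion TAZ-CAMTA1, in which the N-terminal, TEAD-binding part of TAZ continues into the C-terminal part of the activator CAMTA1.

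Values are the authors' CPM, read counts scaled to an adjusted library size. Folds are differences of log2(CPM + 0.5), with the standard error after the ± sign, and they understate the change of low genes. The pooled contrast takes the mean of both constructs, at equal weight, minus control. The words rose and fell are kept for genes with an adjusted p under 0.05 in limma over all 13346 genes, and each construct is named as its libraries are labelled. A single-group fit, in which the 6 TAZ libraries form 1 group and the difference between constructs enters the spread, was an alternative. Over all 13346 genes it called 638 rises and 427 falls, the background for its counts in the lists below. Of 236 called genes in those lists 139 lost the call in it, so its adjusted p is given for the genes described that lost theirs. A single library, TAZ-CAMTA1 replicate 2, differed from the rest. It correlated at 0.968 and 0.967 with the other libraries of its group, where each of the other replicate pairs reached at least 0.996, and its share of reads in ribosomal protein genes was 3.70%, with 1.68% to 1.95% elsewhere. Depth was 22817562 to 35491338 reads in genes per library. A count of 0 allows up to 0.0849 to 0.134 CPM in a single library, taken as 3 reads, and this covers counting error only.

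More of the shared rises than of the shared falls were large. Both constructs reached at least 2-fold in 193 genes above control and in 42 below, at least 4-fold in 27 and 3, and at least 8-fold in 10 and 0. The median pooled log2 fold change was 0.68 among the genes above (0.54 for TAZ4A and 0.71 for TAZ-CAMTA1) and −0.40 among those below (−0.32 and −0.45), and it was −0.03 over all genes tested. Since a member must lie outside all controls, these counts and medians follow in part from the rule. The same fold counts were not taken over all genes tested. On the TPM scale, which allows for transcript length, the genes above had a median level of 5.89 in control, the genes below 42.5 and all genes tested 23.0. In 230 genes above, every control library was under 0.5 CPM, so that these passed the minimum level only through the TAZ libraries. In 13 genes below, every TAZ library was under 0.5 CPM. How far this unequal effect of the minimum level adds to the excess of large rises was not tested.

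In the pooled contrast 1868 genes rose (14.0% of those tested) and 1492 fell (11.2%). Among the shared genes 1212 of 1396 rose and 1078 of 1583 fell, counts from which nothing can be read, because the same values chose the genes. The pooled contrast also called 1070 genes that are not shared, in which the 6 TAZ libraries were not all on the same side of all controls. The split of shared genes into above and below depended on the scale: with every library rescaled to the same sum, 1721 were above and 1157 below, so that 59.8% rather than 46.9% were above. On that scale 2124 genes rose and 1128 fell in the pooled contrast.

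**Figure D1:**
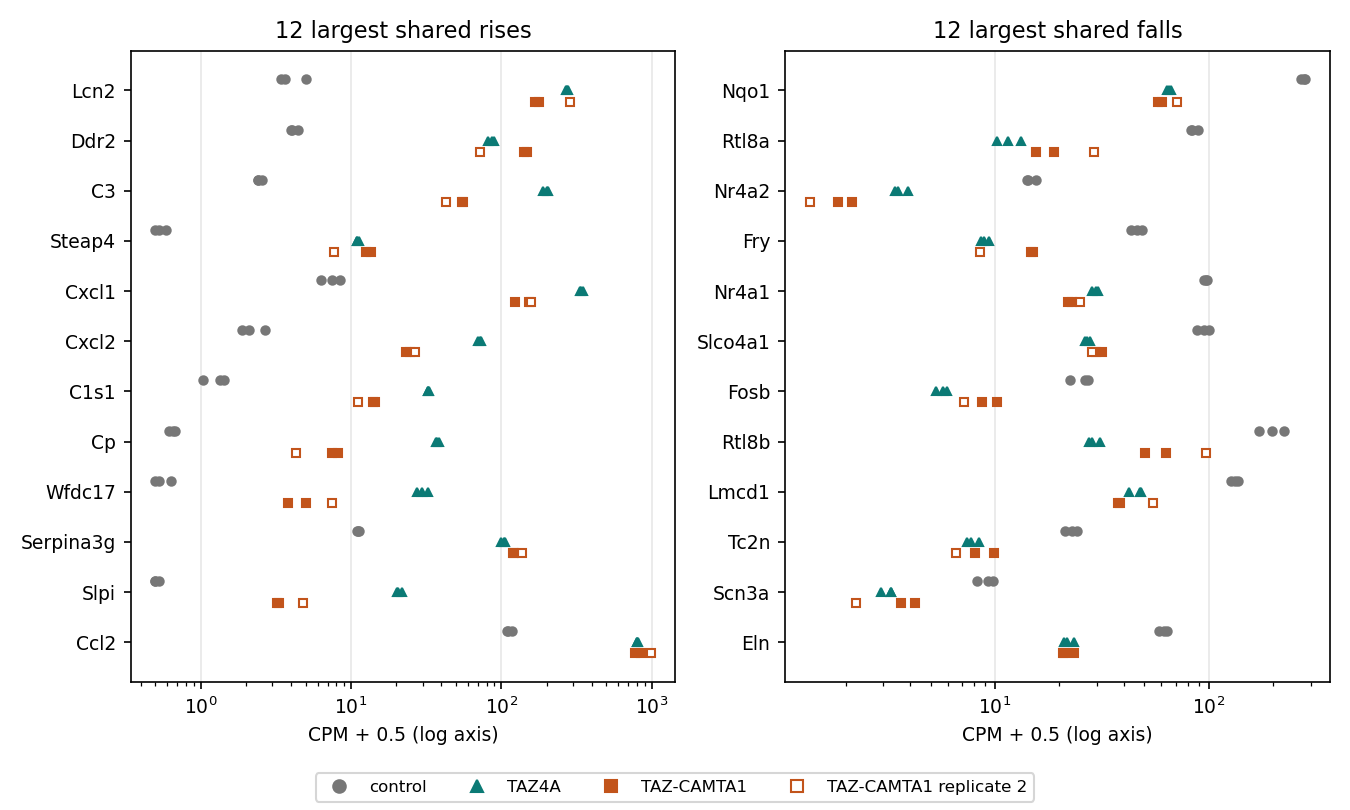
CPM + 0.5 on a log axis for the 12 largest rises (left) and 12 largest falls (right) among the shared genes, ranked by the construct with the smaller change. Each point is 1 library: grey circles control, green triangles TAZ4A, orange squares TAZ-CAMTA1, with replicate 2 open. No TAZ point overlaps a control point, as the rule demands, and Lcn2 goes from 2.91 to 4.51 CPM in control to 166 to 284 CPM in the TAZ libraries.

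Genes of secreted proteins, a receptor kinase and a membrane reductase were among the largest shared rises. Lcn2, an iron-siderophore-binding protein of the innate response, stood at 4.51, 3.15 and 2.91 CPM in control, 274, 277 and 268 CPM in libraries labelled TAZ4A and 166, 284 and 178 CPM in TAZ-CAMTA1. All 6 TAZ libraries were far above control (pooled log2 fold change 5.90 ± 0.18, adjusted p = 3e-07). The 2 constructs overlapped only through TAZ-CAMTA1 replicate 2. Ccl2, a chemokine that attracts monocytes, was at 118, 110 and 109 CPM in control, 798, 800 and 813 CPM in TAZ4A and 781, 985 and 853 CPM in TAZ-CAMTA1. Its log2 fold change was 2.83 with TAZ4A and 2.95 with TAZ-CAMTA1, and the difference between the constructs was 0.11 ± 0.09 (adjusted p = 0.36). On the TPM scale Ccl2 rose from 298 to 2230 and was among the most abundant shared genes.

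Ddr2, a receptor tyrosine kinase that binds fibrillar collagen, was at 3.93, 3.47 and 3.55 CPM in control. It reached 86.1, 81.4 and 88.5 CPM in TAZ4A and 148, 71.9 and 142 CPM in TAZ-CAMTA1. The lowest TAZ library was TAZ-CAMTA1 replicate 2, still far above every control (pooled log2 fold change 4.59 ± 0.21, adjusted p = 2.3e-06). Steap4, a metalloreductase of the plasma membrane, had 3 reads in the 3 control libraries together and 2031 in the 6 TAZ libraries. The ratio per unit of depth was 319 (95% exact interval 109 to 1550, counting error only), and the constructs stood at 10.5 ± 0.238 and 10.8 ± 3.12 CPM (SD, n = 3 each). Serpina3g, a serine protease inhibitor, rose from 10.6 to 103 and 126 CPM in TAZ4A and TAZ-CAMTA1. Its reads may be shared with the near-identical genes of the Serpina3 cluster.

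The other largest rises also reached both constructs but were higher in the libraries labelled TAZ4A. C3, the central complement protein, went from 1.96 ± 0.0859 CPM in control to 199 ± 8.31 CPM in TAZ4A and 50.6 ± 6.85 CPM in TAZ-CAMTA1 (SD, n = 3). C1s1, a complement protease with the close copy C1s2, went from 0.770 CPM to 32.2 and 12.7 CPM. Cxcl1 and Cxcl2, chemokines for neutrophils, had pooled log2 fold changes of 4.91 ± 0.11 and 4.26 ± 0.11. Cp, the copper-carrying ferroxidase ceruloplasmin, was at 0.149 CPM in control, 37.0 CPM in TAZ4A and 6.13 CPM in TAZ-CAMTA1. Slpi, a secreted inhibitor of leukocyte proteases, had 1 control read against 2380 in the TAZ libraries (ratio 1120, 95% exact interval 201 to 44300). Wfdc17, a small secreted protein of the same domain family, had 4 against 3453 (ratio 406, 159 to 1490).

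Among the 12 largest shared falls were an enzyme, transcription factors, a scaffold protein and a retrotransposon-derived gene pair. Nqo1, the quinone reductase that is a standard target of NRF2, stood at 281, 269 and 277 CPM in control, 63.3, 64.9 and 66.0 CPM in TAZ4A and 59.7, 70.5 and 57.1 CPM in TAZ-CAMTA1. The 2 constructs overlapped only through TAZ-CAMTA1 replicate 2, with log2 fold changes of −2.08 and −2.14 (pooled −2.11 ± 0.08, adjusted p = 5.5e-07). The orphan nuclear receptors Nr4a1 and Nr4a2 fell by 1.88 ± 0.07 and 2.54 ± 0.14 on the log2 scale. Nr4a1 was at 97.8, 96.2 and 93.9 CPM in control, 27.8, 29.9 and 29.3 CPM in TAZ4A and 21.4, 24.6 and 22.5 CPM in TAZ-CAMTA1. Fosb, a subunit of the AP-1 transcription factor, fell by 1.86 ± 0.12.

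Eln, which encodes elastin, fell to the same level with both constructs, 60.9 ± 2.64 CPM in control against 21.6 ± 1.23 in TAZ4A and 21.3 ± 1.55 in TAZ-CAMTA1 (difference between constructs −0.02 ± 0.08, adjusted p = 0.86). Fry, a large scaffold protein that binds the NDR kinases of the Hippo family, fell from 45.4 to 8.43 and 12.3 CPM. Slco4a1, an organic anion transporter, fell by 1.72 ± 0.07 and Lmcd1, a LIM domain cofactor of GATA proteins, by 1.58 ± 0.12. Tc2n, a C2 domain protein, and Scn3a, a sodium channel subunit, fell by 1.51 ± 0.13 and 1.5 ± 0.18. Rtl8a and Rtl8b, retrotransposon-derived genes that lie side by side on the X chromosome and are close copies, fell by 2.47 ± 0.18 and 2.16 ± 0.19, and their reads could not be told apart with certainty.

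Wwtr1 itself was lower in the TAZ libraries. The mouse gene, on chromosome 3 at 57455649 to 57575910 (mm10), was at 524, 519 and 552 CPM in control, 309, 310 and 323 CPM in TAZ4A and 476, 311 and 470 CPM in TAZ-CAMTA1. All 6 TAZ libraries were below control, and the pooled change was −0.56 ± 0.13 (adjusted p = 0.014). Against control alone, TAZ4A passed in limma (−0.76, adjusted p = 0.0068) and TAZ-CAMTA1 did not (−0.37, adjusted p = 0.099). The pooled call was lost in the single-group fit (adjusted p = 0.087), with TPM values (0.074) and without any 1 of the control libraries (0.051 to 0.066). The labels do not say from which species the TAZ sequence of the vectors came, so the gene table gives no check of the TAZ4A label. Camta1 was not shared: it stood at 4.90, 5.49 and 13.5 CPM in control, TAZ4A and TAZ-CAMTA1, and TAZ4A overlapped control. Its pooled call (0.77) was lost in the single-group fit (adjusted p = 0.26). Yap1, the paralog of TAZ, was lower in all 6 libraries without passing the test (−0.27 ± 0.12, adjusted p = 0.13).

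Of the 4 TEAD genes, whose proteins bring TAZ to DNA, 1 passed the pooled test, near the 25.2% of all genes tested that did. Tead3 rose from 2.81, 2.69 and 2.94 CPM to 6.80, 7.47 and 6.43 CPM in TAZ4A and 4.30, 5.10 and 5.13 CPM in TAZ-CAMTA1 (0.92 ± 0.09, adjusted p = 0.00012). Tead2 lay above control in all 6 libraries (0.27 ± 0.11, adjusted p = 0.10) and Tead4 below (−0.29 ± 0.11, adjusted p = 0.092), and neither passed. Tead1 was not shared, at 154 to 165 CPM in control, 211 to 231 CPM in TAZ4A and 180, 84.2 and 177 CPM in TAZ-CAMTA1. Without TAZ-CAMTA1 replicate 2, Tead1 changed by 0.32 (adjusted p = 7.9e-06), Tead2 by 0.20 (0.0019), Tead4 by −0.21 (0.0042) and Yap1 by −0.18 (0.00035), so that all 4 passed. In that fit 26.6% of all genes rose and 30.0% fell. Tead4 passed also without TAZ-CAMTA1 replicate 1 (−0.34, adjusted p = 0.041).

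Established target genes of YAP and TAZ with TEAD were counted next. This list and those below were written with earlier results of these data known. Their shares beside those of all genes are therefore descriptions and support nothing by themselves. Of 26 tested, 11 were above control in all 6 libraries (42.3%, against 10.5% of all genes) and 1 was below (3.85% against 11.9%), and 14 rose and 0 fell in the pooled contrast with limma (against 14.0% and 11.2% of all genes). For falls the count was also 0 at an unadjusted p under 0.05 and 0 with edgeR and DESeq2. The list's median pooled change was 0.56, with 0.70 for TAZ4A and 0.23 for TAZ-CAMTA1, which share their controls. Ankrd1, a nuclear cofactor and muscle ankyrin-repeat protein, was at 28.3, 31.6 and 30.4 CPM in control, 383, 384 and 388 CPM in TAZ4A and 109, 104 and 97.7 CPM in TAZ-CAMTA1. It rose with both, by 1.89 ± 0.07 less on the log2 scale with TAZ-CAMTA1 (adjusted p = 4.7e-07). Ccn1, a matricellular protein also named Cyr61, was at 546, 551 and 531 CPM in control, 1270, 1260 and 1240 CPM in TAZ4A and 1160, 1210 and 1180 CPM in TAZ-CAMTA1. Its log2 fold changes were 1.21 and 1.13, and the difference of −0.08 ± 0.06 did not pass (adjusted p = 0.31).

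Further shared targets rose. The kinase Nuak2 rose by 1.24, the angiomotin Amotl2 by 1.20, the RhoA GTPase-activating protein Dlc1 by 0.98 and the exchange factor Arhgef17 by 0.80. The growth factor Tgfb2 rose by 0.71, the LIM protein Ajuba by 0.63, the vasoconstrictor Edn1 by 0.62 and the caveola protein Cav1 by 0.48. Axl, a receptor tyrosine kinase, met the rule but at very unequal levels (0.326 CPM in control, 12.1 in TAZ4A, 0.579 in TAZ-CAMTA1). Amotl1 was the shared target below control and did not pass (−0.37, adjusted p = 0.34). Ccn2, among the best known targets, overlapped control. The rises of Vgll3 and F3 in the pooled contrast came with log2 fold changes of 3.46 and 1.57 with TAZ4A and 0.00 and 0.13 with TAZ-CAMTA1, and they were not shared. The calls of Cav1, Axl, F3 and Vgll3 were lost in the single-group fit (adjusted p = 0.19, 0.25, 0.28 and 0.35). On leaving out TAZ-CAMTA1 replicate 2, 20 targets rose and 3 fell, where 26.6% and 30.0% of all genes did.

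**Figure D2:**
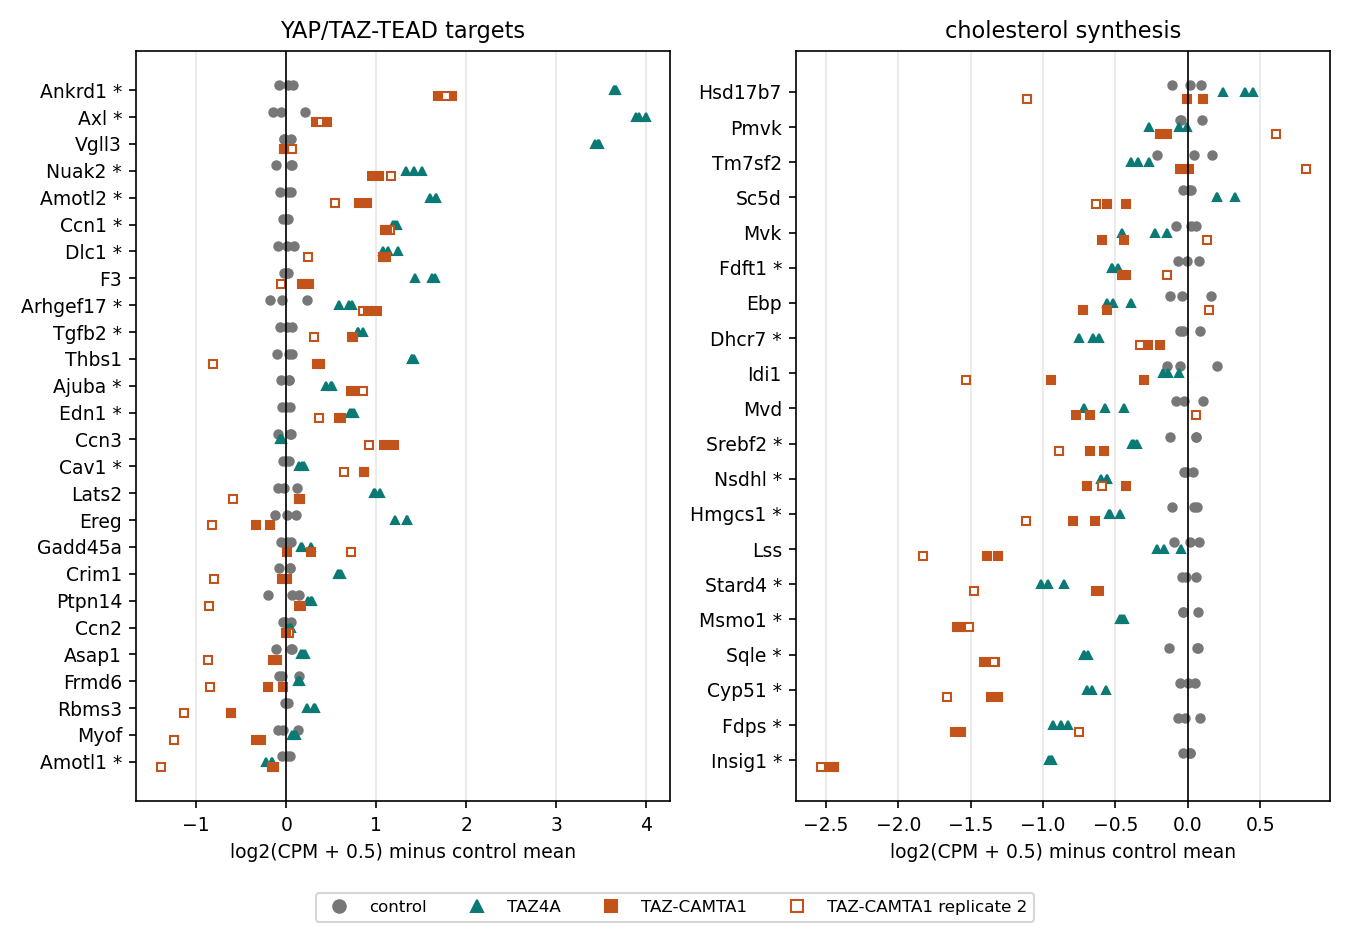
Difference of log2(CPM + 0.5) from the control mean in each library for the tested targets of YAP/TAZ with TEAD (left) and 20 of the 23 tested genes of cholesterol synthesis (right), in order of the pooled change. Symbols are as in the plot of the largest changes, and an asterisk after a name marks a shared gene, 12 on the left and 11 on the right. Most points of the right panel lie left of 0, and several left-panel genes have the open square of TAZ-CAMTA1 replicate 2 apart from its group.

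The promoters of 4 shared rises that hold the TEAD motif GGAATG before the transcript start are shown, because the rises of these genes are among those described above. Ankrd1 and Ccn1 are standard TEAD targets, while C1s1 and Cp come from the largest rises. Sequences are RefSeq's on GRCm38.p6, 250 bases up to the start, 5′ to 3′ on the gene's strand, with the motif or its reverse complement CATTCC in capitals.
Ankrd1 promoter (chr19:36119845-36120094, minus strand): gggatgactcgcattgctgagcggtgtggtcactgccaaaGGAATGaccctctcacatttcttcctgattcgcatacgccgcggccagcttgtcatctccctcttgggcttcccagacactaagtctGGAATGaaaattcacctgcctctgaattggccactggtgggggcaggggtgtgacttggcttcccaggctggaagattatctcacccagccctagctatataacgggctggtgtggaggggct
Ccn1 promoter (chr3:145649986-145650235, minus strand): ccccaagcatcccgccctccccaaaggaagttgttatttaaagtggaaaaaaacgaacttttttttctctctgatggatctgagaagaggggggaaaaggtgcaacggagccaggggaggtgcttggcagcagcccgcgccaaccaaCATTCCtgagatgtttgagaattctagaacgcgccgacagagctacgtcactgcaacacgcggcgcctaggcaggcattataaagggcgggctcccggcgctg
C1s1 promoter (chr6:124542360-124542609, minus strand): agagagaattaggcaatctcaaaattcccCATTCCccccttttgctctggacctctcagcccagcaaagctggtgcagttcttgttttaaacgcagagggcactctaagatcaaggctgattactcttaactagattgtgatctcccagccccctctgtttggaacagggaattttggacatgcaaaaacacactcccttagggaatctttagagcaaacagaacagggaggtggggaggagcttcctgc
Cp promoter (chr3:19956999-19957248, plus strand): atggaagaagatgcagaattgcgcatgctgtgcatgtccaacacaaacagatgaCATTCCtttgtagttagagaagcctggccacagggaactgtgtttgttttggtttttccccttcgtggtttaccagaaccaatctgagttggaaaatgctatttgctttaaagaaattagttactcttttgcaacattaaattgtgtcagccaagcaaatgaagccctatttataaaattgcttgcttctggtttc

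The Ankrd1 window held 2 copies of the motif, and the other windows held 1 each. The motif was not particular to the shared genes or to rises: windows of Nr4a1, Clec14a and Cldn15, which fell, also held it. Counted on both strands in windows from 250 bases before to 50 bases after the start, GGAATG was in 14.3% of 1312 windows of genes above, 12.2% of 1652 windows of genes below and 12.4% of 12511 windows of genes tested. The AP-1 motif TGANTCA was in 7.09%, 5.27% and 5.21%. Over all RefSeq windows, of genes tested or not, GGAATG was in 14.7% and TGANTCA in 7.81%, both above the shares of the genes above. The interferon-response element, GAAA and GAAA with any 2 bases between, was in 3.35%, 2.72% and 3.05%, and the sterol regulatory element TCACNCCAC in 1.22%, 0.908% and 1.13%. Of the shared genes, 994 above and 1220 below matched a RefSeq window by name. A match describes these letters and is not a binding site, and TEAD binding far from promoters was not analysed here.

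Genes of inflammation under NF-κB gave the largest share above control among the lists with 10 or more genes tested. Of 32 tested, 21 were above in all 6 libraries (65.6% against 10.5% of all genes) and 0 below, and 26 rose and 1 fell in the pooled contrast (against 14.0% and 11.2%). The single-group fit called 14 rises in the list and 638 over all 13346 genes. The median pooled change was 1.20, with 1.56 for TAZ4A and 0.84 for TAZ-CAMTA1. Beside the genes above, the shared rises held the growth factors of myeloid cells Csf1 (2.20), Csf3 (2.09) and Csf2 (1.37). They also held Il6 (0.73), Il1a (1.16) and the adhesion molecules Icam1 (1.00) and Vcam1 (0.94), which hold leukocytes at the vessel wall. Components and feedback inhibitors of the pathway rose as well: the subunits Nfkb2 (0.40) and Relb (0.66), the inhibitors Nfkbia (0.54) and Nfkbie (1.01), the cofactor Bcl3 (1.58) and the deubiquitinase Tnfaip3 (1.61). Icam1 rose by 0.97 with TAZ4A and 1.03 with TAZ-CAMTA1. The calls of Nfkb2, Nfkbie, Vcam1 and Relb were lost in the single-group fit (adjusted p = 0.099, 0.11, 0.11 and 0.23), and that of Relb also without any 1 of the controls (0.055 to 0.071).

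Of the 21 shared genes of this list, 14 differed between the constructs, where 43.1% of all shared genes above and 36.6% of all genes tested did. Cxcl5, a neutrophil chemokine, had 3 control reads against 1694 in the TAZ libraries (ratio 266, 95% exact interval 90.8 to 1290). It stood at 14.6, 15.6 and 16.4 CPM in TAZ4A and at 1.16, 1.05 and 1.38 CPM in TAZ-CAMTA1, and it lost its call in the single-group fit (adjusted p = 0.059). Relb and Nfkbie went the other way, with log2 fold changes of 0.22 and 0.45 with TAZ4A and 1.10 and 1.57 with TAZ-CAMTA1. Ptgs2, the inducible cyclooxygenase, fell in the pooled contrast but was not shared (0.53 in TAZ4A and −3.14 in TAZ-CAMTA1, adjusted p = 0.54 in the single-group fit).

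Most interferon-response genes that rose in the pooled contrast were not shared. Of 34 tested, 21 rose and 1 fell in the pooled contrast (against 14.0% and 11.2% of all genes), while 9 were shared (26.5% against 10.5%, all above). In the single-group fit 5 rose and 0 fell, where 638 and 427 of all 13346 genes did. The list's median was 1.24 with TAZ4A and −0.39 with TAZ-CAMTA1. Of the 9 shared genes 7 differed between the constructs, where 43.1% of all shared genes above and 36.6% of all genes tested did. The 9 shared genes included B2m, the light chain of MHC class I, the immunoproteasome subunits Psmb8 and Psmb9 and the peptide transporter Tap1, which serve antigen presentation. B2m rose from 3340 to 5870 on the TPM scale (0.74, adjusted p = 0.0011). Psmb9 was at 3.75, 3.76 and 2.94 CPM in control, 8.87, 9.68 and 7.59 CPM in TAZ4A and 5.46, 9.79 and 6.64 CPM in TAZ-CAMTA1. The remaining shared genes also rose in the pooled contrast. Their log2 fold changes with TAZ4A and TAZ-CAMTA1 were 1.14 and 0.90 for Gbp2, a guanylate-binding protein, 1.56 and 0.32 for Xaf1, an inducer of apoptosis, and 1.51 and 0.30 for Dhx58, an RNA sensor. They were 0.88 and 0.81 for the exonuclease Isg20, and 2.25 and 0.42 for Oas1a, a synthetase of oligoadenylates whose reads close copies may share. Classical members such as Isg15 and Ifit3 had pooled rises of 0.79 and 0.53 made of 2.13 and 2.02 with TAZ4A and −0.54 and −0.96 with TAZ-CAMTA1. Calls lost in the single-group fit were those of B2m (adjusted p = 0.093), Xaf1 (0.16), Dhx58 (0.16), Oas1a (0.17), Isg15 (0.62) and Ifit3 (0.77). Isg20 lost its call without control replicate 3 (0.056), as did Isg15 (0.053).

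Genes of glycolysis and hypoxia were above control in 14 of 26 (53.8% against 10.5% of all genes) and below in 0, and 16 rose and 1 fell (against 14.0% and 11.2%; median pooled change 0.46). With the TAZ libraries as a single group 8 rose, where 638 of all 13346 genes did. Hk2, the hexokinase that starts glycolysis, was at 5.54, 5.90 and 4.52 CPM in control, 34.8, 33.7 and 32.0 CPM in TAZ4A and 20.5, 14.9 and 19.6 CPM in TAZ-CAMTA1 (2.12 ± 0.12, adjusted p = 6.4e-06). Vegfa, the main growth factor of vessels, was at 11, 11.4 and 12.5 CPM in control, 33.8, 35.2 and 33.5 CPM in TAZ4A and 37.5, 27.4 and 35.9 CPM in TAZ-CAMTA1. Its rise of 1.5 ± 0.10 did not differ detectably between constructs (−0.04 ± 0.12, adjusted p = 0.84). Further enzymes of the pathway rose less, Pfkfb3 by 1.27, Pfkp by 0.99, Ldha by 0.70, Eno1 by 0.69, Pgk1 by 0.75 and Gpi1 by 0.36. The lactate exporter Slc16a3 rose with log2 fold changes of 0.18 and 1.60 for TAZ4A and TAZ-CAMTA1, and the mitophagy receptor Bnip3 with 0.88 and 2.48. Tpi1 was shared but did not pass (0.34, adjusted p = 0.051). Bnip3, Pgk1, Gpi1 and Slc16a3 lost the call in the single-group fit (adjusted p = 0.054, 0.084, 0.24 and 0.26). Eno1 lost it without any 1 of the controls (0.053 to 0.095), Gpi1 without control replicate 3 (0.061), and Pgk1 without control replicate 2 (0.088) or 3 (0.11) or TAZ4A replicate 1 or 3 (0.053 each).

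Collagens and matrix genes were above control in 14 of 33 (42.4% against 10.5% of all genes) and below in 4 (12.1% against 11.9%), and 16 rose and 1 fell (against 14.0% and 11.2%). On the scale of equal library sums 2 were below (1157 of all 13346 genes). In the single-group fit 10 rose (638 of all genes), and without TAZ-CAMTA1 replicate 1, 4 fell (1502 of all genes). Nid2, a basement membrane linker, was at 0.804, 0.925 and 0.940 CPM in control, 5.76, 5.46 and 6.17 CPM in TAZ4A and 9.46, 7.94 and 6.93 CPM in TAZ-CAMTA1 (2.40 ± 0.11, adjusted p = 1.5e-06). The laminin chain Lamb1 rose by 1.26, the collagen chains Col6a1, Col18a1 and Col5a1 by 1.44, 1.5 and 0.68, the crosslinking enzyme Loxl2 by 0.79 and the membrane protease Mmp14 by 0.44 (adjusted p = 0.17 in the single-group fit). Col1a1 and Col3a1, the fibrillar collagens of fibroblasts, rose by 0.91 and 1.32 but stayed at or under 0.749 and 4.56 CPM in every library. Sparcl1, a matrix protein related to SPARC, fell from 139, 143 and 147 CPM to 18.1, 16.0 and 15.9 CPM in TAZ4A and 69.0, 58.8 and 69.6 CPM in TAZ-CAMTA1. The other 3 shared genes below, Fbln5, Timp2 and Tnc, did not pass.

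Among receptor tyrosine kinases and their ligands 7 of 22 were above (31.8% against 10.5% of all genes) and 3 below (13.6%, near the 11.9% of all genes), and 9 rose and 3 fell (against 14.0% and 11.2%). In the single-group fit 4 rose and 0 fell (638 and 427 of all 13346 genes). With Ddr2 and Axl rose Gas6, the ligand of Axl, from 2.32, 2.28 and 2.33 CPM to 8.93, 7.70 and 7.53 CPM in TAZ4A and 9.64, 9.15 and 7.93 CPM in TAZ-CAMTA1. Tyro3, a receptor of the same family, rose by 0.68. The platelet-derived growth factors Pdgfa and Pdgfd rose by 1.5 and 0.60, and their receptors Pdgfra and Pdgfrb by 1.28 ± 0.18 and 0.80 ± 0.11. Angpt2, a ligand of the receptor TIE2, fell from 1000, 989 and 992 CPM to 464, 455 and 460 CPM in TAZ4A and 780, 634 and 816 CPM in TAZ-CAMTA1. Kit, the receptor for stem cell factor, fell from 579, 551 and 598 CPM to 193, 188 and 194 CPM in TAZ4A and 472, 256 and 477 CPM in TAZ-CAMTA1. The calls of Angpt2, Kit and Pdgfd were lost in the single-group fit (adjusted p = 0.061, 0.089 and 0.054), and that of Pdgfd also in the second gene table described below (0.22).

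**Figure D3:**
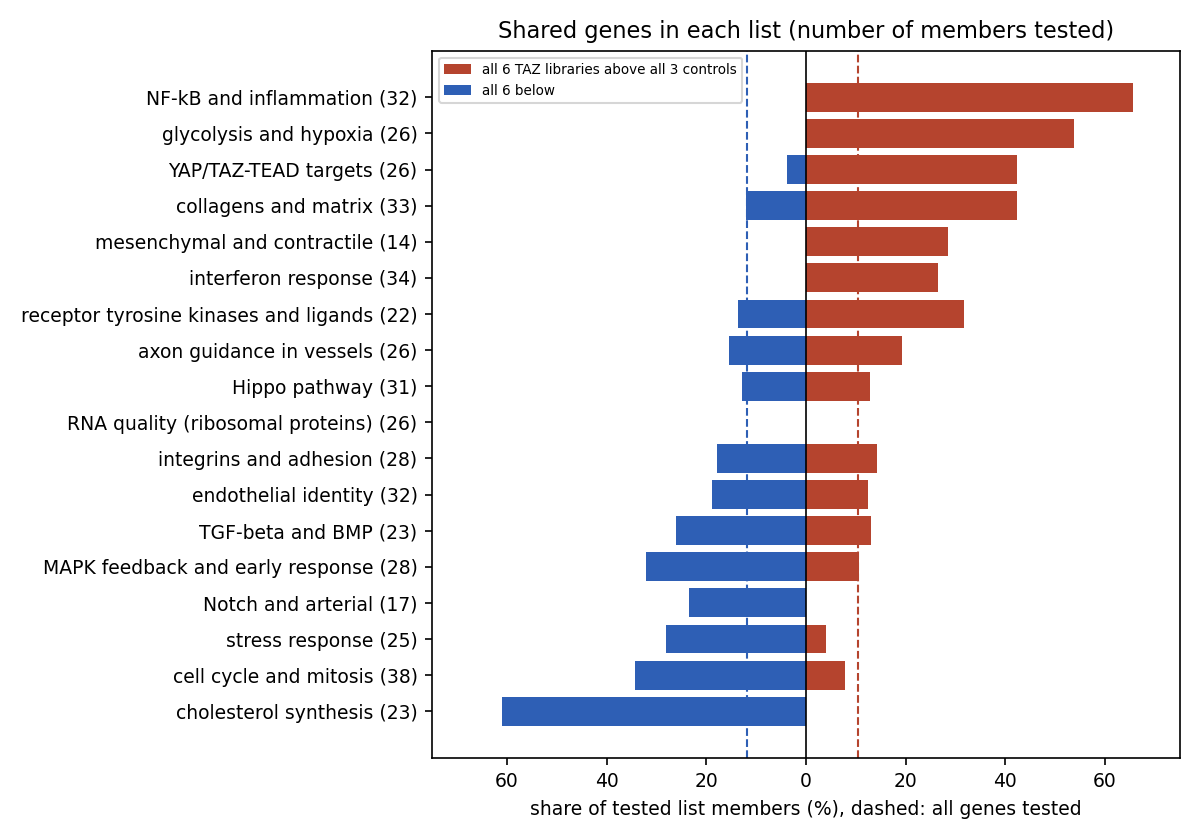
Share of the tested members of each list of 10 or more genes that were shared, to the right in red where all 6 TAZ libraries were above all 3 controls and to the left in blue where all 6 were below. Dashed lines mark the shares over all genes tested, 10.5% above and 11.9% below. NF-κB genes reach 65.6% above and cholesterol synthesis 60.9% below, while the ribosomal protein list has 0 shared genes.

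Cholesterol synthesis gave the largest share below control among these lists. Of 23 tested, 14 were below in all 6 libraries (60.9% against 11.9% of all genes) and 0 above, and 15 fell and 0 rose with limma against 11.2% and 14.0% of all genes (also 0 rises at an unadjusted p under 0.05, and 0 with edgeR and DESeq2). Under the single-group fit 11 fell, where 427 of all 13346 genes did. The median pooled change was −0.57, with −0.51 for TAZ4A and −0.85 for TAZ-CAMTA1. Insig1, which retains the sterol sensor SCAP in the endoplasmic reticulum, was at 164, 164 and 158 CPM in control, 84.4, 84 and 83.1 CPM in TAZ4A and 28.8, 27.5 and 29.3 CPM in TAZ-CAMTA1 (−1.71 ± 0.06, adjusted p = 3e-07). The oxidase Msmo1 fell with log2 fold changes of −0.45 for TAZ4A and −1.55 for TAZ-CAMTA1 (adjusted p = 0.091 in the single-group fit). Squalene epoxidase Sqle fell by 1.03, Cyp51 by 1.04, Fdps by 1.09 and the transcription factor Srebf2 by 0.54. Of the 14 shared genes 9 differed between the constructs, where 28.2% of all shared genes below and 36.6% of all genes tested did.

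Of the stress-response genes 7 of 25 were below (28.0% against 11.9% of all genes) and 1 above (4.00% against 10.5%), and 8 fell and 4 rose (against 11.2% and 14.0%), with a median near that of all genes (−0.03). In the single-group fit 6 fell and 0 rose (427 and 638 of all 13346 genes). Without any 1 of the TAZ4A or control libraries 2 rose, where 1340 to 1546 of all genes did. The shared falls held genes known as NRF2 targets, Nqo1 and beside it Gclc and Gclm, the subunits of the enzyme that starts glutathione synthesis, Hmox1, the heme oxygenase, and Srxn1, sulfiredoxin. Gclc was at 77.1, 74.4 and 81.0 CPM in control, 43.9, 41.5 and 45.2 CPM in TAZ4A and 33.1, 20.5 and 32.2 CPM in TAZ-CAMTA1. Gclm, Hmox1 and Srxn1 fell by 0.76, 0.74 and 0.73. These 5 were grouped after their values were seen, and no count is drawn from the grouping. Other NRF2 targets of the list were not shared: Txnrd1, a thioredoxin reductase, and Slc7a11, the cystine transporter, changed by 0.18 and 0.32 with TAZ4A and by −0.37 and −1.16 with TAZ-CAMTA1 (pooled adjusted p = 0.59 and 0.11).

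Among genes of MAP kinase feedback and early response 9 of 28 were below (32.1% against 11.9% of all genes) and 3 above (10.7%, near 10.5%), and 9 fell and 7 rose (against 11.2% and 14.0%). Falls numbered 4 and rises 3 in the single-group fit (427 and 638 of all 13346 genes). The feedback phosphatase Dusp6 fell from 135, 132 and 134 CPM to 84.1, 84.4 and 86.7 CPM in TAZ4A and 63.6, 58.7 and 63.4 CPM in TAZ-CAMTA1. Dusp5 fell by 0.51, the Sprouty inhibitors Spry1 and Spry4 by 0.50 and 0.71, Etv5 by 0.53 and Egr2 by 0.93. Ier3 rose by 1.43 ± 0.12, Phlda1 by 0.78 and Dusp8 by 0.62. Egr1 and Junb were not shared, and rose in the pooled contrast with log2 fold changes of −0.37 and −0.01 with TAZ4A and 1.37 and 1.25 with TAZ-CAMTA1. Egr2, Etv5, Spry1, Junb and Egr1 lost the call in the single-group fit (adjusted p = 0.058, 0.059, 0.15, 0.40 and 0.62). Etv5 lost it also with TPM (0.087) and without any 1 of the controls (0.055 to 0.096), Junb without control replicate 1 (0.094) or 2 (0.099) or TAZ4A replicate 2 (0.053), and Dusp5 without control replicate 2 (0.052).

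Cell cycle and mitosis genes were below in 13 of 38 (34.2% against 11.9% of all genes) and above in 3 (7.89% against 10.5%), and 9 fell and 4 rose (against 11.2% and 14.0%). In the single-group fit 3 fell and 1 rose (427 and 638 of all 13346 genes). The changes were small. Cdc20, the activator of the anaphase-promoting complex, fell by 0.53, the replication helicase subunits Mcm5 and Mcm6 by 0.35 and 0.42. Ccnd2, a D-type cyclin, rose by 1.39 ± 0.25, with 53.3, 54.6 and 56.4 CPM in control, 169, 162 and 166 CPM in TAZ4A and 162, 70.2 and 173 CPM in TAZ-CAMTA1. Ccnd1 rose by 0.48 and the inhibitor Cdkn1a by 0.25, a call lost without control replicate 2 (adjusted p = 0.056) or 3 (0.083). The calls of Cdkn1a, Mcm6 and Ccnd1 were lost in the single-group fit (adjusted p = 0.12, 0.14 and 0.19). Cdkn2b, another inhibitor, fell by 0.61. On the scale of equal library sums 5 rather than 13 of these genes were below, against 1157 rather than 1583 of all 13346 genes. Without TAZ-CAMTA1 replicate 2, 21 fell in place of 9, where 30.0% of all genes fell. Without control replicate 2 or 3, 2 rose in place of 4, against 1386 or 1350 in place of 1868 of all genes.

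Endothelial identity genes were above in 4 of 32 (12.5%, near the 10.5% of all genes) and below in 6 (18.8% against 11.9%), and 4 rose and 8 fell (against 14.0% and 11.2%), with medians of −0.47 in TAZ4A and 0.00 in TAZ-CAMTA1. Clec14a, a lectin-like protein of vessels, fell from 95, 104 and 106 CPM to 23.9, 24.7 and 24.7 CPM in TAZ4A and 41.4, 36.9 and 37.5 CPM in TAZ-CAMTA1. The ETS factor Fli1 fell by 0.54, Robo4 by 0.47 and the nitric oxide synthase Nos3 by 0.30. The transcription factor Sox7 rose from 149, 133 and 147 CPM to 201, 197 and 197 CPM in TAZ4A and 355, 291 and 365 CPM in TAZ-CAMTA1. Flt4, the receptor for VEGF-C, rose by 0.71 and Mmrn2, the binding partner of CLEC14A, by 0.82 at 1.25 to 2.39 CPM. The calls of Sox7, Flt4, Nos3 and Robo4 were lost in the single-group fit (adjusted p = 0.057, 0.068, 0.11 and 0.13). In it 1 gene of the list rose and 2 fell (638 and 427 of all 13346 genes). Nos3 lost its call also with TPM (0.054) and without control replicate 1 (0.051). On the scale of equal library sums 5 were above and 5 below (1721 and 1157 of all 13346 genes). Without TAZ-CAMTA1 replicate 2, 10 were below in place of 6 (16.9% of all genes) and 19 fell in place of 8 (30.0% of all genes).

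In the Notch and arterial list 4 of 17 were below (23.5% against 11.9% of all genes) and 0 above, and 2 rose and 7 fell (against 14.0% and 11.2%). With quantile normalization 2 were below (1482 of all 13346 genes). In the single-group fit 0 genes of the list rose or fell, where only 638 and 427 of all 13346 genes did. The feedback regulator Nrarp fell from 136, 138 and 137 CPM to 57.3, 59.3 and 58.5 CPM in TAZ4A and 101, 107 and 92.3 CPM in TAZ-CAMTA1. The target Hes1 fell with log2 fold changes of −1.10 and −0.44 for TAZ4A and TAZ-CAMTA1, the ligand Dll1 with −1.05 and −0.38 and the chemokine receptor Cxcr4 with −3.02 and −0.21. Without TAZ-CAMTA1 replicate 2, 4 genes of the list were above control in place of 0 (15.4% of all genes), and 5 rose and 9 fell (26.6% and 30.0%). Nrarp, Hes1, Dll1 and Cxcr4 had adjusted p of 0.056, 0.060, 0.091 and 0.28 in the single-group fit.

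In the list of TGF-β and BMP signalling 3 of 23 were above (13.0%, near the 10.5% of all genes) and 6 below (26.1% against 11.9%), and 7 rose and 4 fell (against 14.0% and 11.2%). With equal library sums, quantile normalization or TPM 4 were below, where 1157 of 13346, 1482 of 13346 and 1377 of 14994 genes were. The number that rose was 4 without TAZ4A replicate 1 or 2 or control replicate 2 or 3 (1350 to 1537 of all 13346 genes). In the single-group fit 2 rose and 2 fell (638 and 427 of all genes). Inhba, a subunit of activin, and Ltbp2, a latent-TGF-β-binding protein of the matrix, rose by 2.15 ± 0.23 and 1.93 ± 0.14, and Inhba lost its call in the single-group fit (adjusted p = 0.071). The BMP effector Smad1 fell by 0.81 ± 0.08 and its target Id2 by 0.86 ± 0.08. Another Id gene of the list, Id3, went the other way and rose by 0.62. Its call was lost in the single-group fit (adjusted p = 0.61) and without any 1 of the controls (0.065 to 0.12).

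In the list of integrins and adhesion 4 of 28 were above (14.3% against 10.5% of all genes) and 5 below (17.9% against 11.9%), and 6 rose and 4 fell (against 14.0% and 11.2%). On the scale of equal library sums 3 were below and with quantile normalization 2 (1157 and 1482 of all 13346 genes). In the single-group fit 1 rose and 1 fell (638 and 427 of all genes). The integrin subunits Itgb5 and Itga9 rose by 1.78 ± 0.09 and 1.13 ± 0.11, and Itga3 fell by 0.34 ± 0.08. The call of Itga9 was lost in the single-group fit (adjusted p = 0.12), and that of Itga3 in the same fit (0.057), with TPM (0.09) and without control replicate 1 (0.056). Cldn15, a pore-forming tight junction protein, fell from 46.5, 50.1 and 45.2 CPM to 8.18, 7.92 and 8.06 CPM in TAZ4A and 19.9, 25.7 and 20.5 CPM in TAZ-CAMTA1. Of 26 axon guidance genes that also act in vessels, 5 were above (19.2% against 10.5%) and 4 below (15.4% against 11.9%), and 10 rose and 3 fell (against 14.0% and 11.2%). In the single-group fit 3 rose and 1 fell (638 and 427 of all 13346 genes), and 3 were above in the second gene table (1347 of 12350). With TPM or without control replicate 3, 1 fell (1057 of 14994 and 848 of 13346 genes). The co-receptors moved apart: Nrp2 rose by 1.28 ± 0.21 and Nrp1 fell by 0.71 ± 0.16, a call lost with TPM (adjusted p = 0.057) and without control replicate 1 (0.054) or 3 (0.056). The secreted guidance protein Ntn1 rose by 1.16 ± 0.09 at a low level, 0.202 to 0.313 CPM in control and 0.836 to 1.67 CPM in the TAZ libraries. Among the components of the Hippo pathway 4 of 31 were above and 4 below (12.9% each, near the 10.5% and 11.9% of all genes), and 5 rose and 3 fell, also near the shares over all genes (14.0% and 11.2%). In the single-group fit 2 rose and 1 fell (638 and 427 of all genes), and without any 1 of the controls 1 fell (848 to 877 of all genes). The atypical cadherin Dchs1 rose by 1.17 ± 0.24 and the kinase Taok2 fell by 0.48 ± 0.09. The call of Taok2 was lost with TPM (adjusted p = 0.051), where 0 Hippo genes and 1057 of all 14994 genes fell. In the fit without TAZ-CAMTA1 replicate 2, 16 Hippo genes rose and 8 fell, where 26.6% and 30.0% of all genes did, and 9 integrin and adhesion genes were above control in place of 4 (15.4% of all genes).

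Markers of the tissue and of other cells were examined beside these groups. The 12 endothelial markers summed to 11900 to 12000 CPM in control, 7790 to 8070 CPM in TAZ4A and 11300 to 12800 CPM in TAZ-CAMTA1. Erg, Robo4 and Eng were below control in all 6 TAZ libraries, and Cldn5 was at or near 0 in every library. Of the 7 markers of fibroblasts and mural cells, Pdgfra, Pdgfrb and Col1a1 were above control in all 6 TAZ libraries, and their list summed to 5.09 to 5.67 CPM in control, 14.9 to 16.1 CPM in TAZ4A and 9.34 to 15.3 CPM in TAZ-CAMTA1. Rgs5, Lum and Cspg4 were at or near 0 in all groups, and Dcn at 1.92 to 2.01 CPM in TAZ4A and at most 0.0319 CPM elsewhere. Dcn rose in the pooled contrast (1.17), a call lost in the single-group fit (adjusted p = 0.34). A separate list of genes with mesenchymal or contractile function had 4 of 14 above (28.6% against 10.5% of all genes) and 0 below, and 8 rose and 1 fell (against 14.0% and 11.2%). In the single-group fit 2 rose and 0 fell, where 638 and 427 of all 13346 genes did. Besides both receptors, Cnn2 and Tpm1, which bind actin, rose by 0.93 and 0.41 (adjusted p = 0.14 and 0.091 in the single-group fit).

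Markers of blood cells summed to 436 to 503 CPM in control, 382 to 392 CPM in TAZ4A and 448 to 679 CPM in TAZ-CAMTA1, nearly all of it the lysosomal protein Cd68, which was not shared. Ptprc, Csf1r and Itgam were at most 0.226 CPM in every library. Lyz2, lysozyme of myeloid cells, rose with 2 control reads against 869 in the TAZ libraries (ratio 205, 95% exact interval 56.5 to 1690), at 1.42 to 2.19 CPM in TAZ4A and 6.30 to 10.4 CPM in TAZ-CAMTA1. Markers of pancreatic epithelium summed to at most 23.3 CPM in control, 27.0 to 29.2 CPM in TAZ4A and 20.2 to 47.1 CPM in TAZ-CAMTA1, mostly the keratin Krt18. The highest blood and epithelial sums in TAZ-CAMTA1 both came from replicate 2. Cd68 was at 668 CPM there and at 441 and 507 CPM in the other libraries of its group. Krt18 was at 44.1 CPM there and at 23.7 and 18.6 CPM in the others. Krt19, a duct keratin, rose from 0.425 to 0.536 CPM to 7.71 to 9.73 CPM in TAZ4A and 0.806 to 2.04 CPM in TAZ-CAMTA1 (adjusted p = 0.14 in the single-group fit). In these bulk libraries more cells of a type and more RNA per cell cannot be told apart, and the part of other cells in the shared changes was not tested. None of the 26 ribosomal protein genes was shared, where 22.3% of all genes tested were. On the scale of equal library sums 3 were above (1721 of all 13346 genes).

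The 2 constructs were then set against each other within the shared genes. The rule used the values of the same 6 TAZ libraries, so the counts describe the chosen genes and support nothing by themselves. Of 2979 shared genes 1048 differed between TAZ-CAMTA1 and TAZ4A (35.2%), near the 36.6% over all genes tested. Of the 1396 above, 602 differed (43.1%), 222 farther from control in TAZ4A and 380 farther in TAZ-CAMTA1. Of the 1583 below, 446 differed (28.2%), 174 farther in TAZ4A and 272 farther in TAZ-CAMTA1. A gene that did not differ by this test is not shown to respond alike. Without TAZ-CAMTA1 replicate 2, 1678 of the same 2979 genes differed (56.3%, against 60.3% of all genes).

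The genes with the widest difference were shared by the rule at very unequal levels. Siglecg, a sialic-acid-binding receptor of B cells, stood at 22.9, 23.2 and 22.8 CPM in TAZ4A and at 0.0299, 0.0319 and 0.0417 CPM in TAZ-CAMTA1, with 1 read in the control libraries together. A single read per library put TAZ-CAMTA1 above the controls. Axl was at 12, 12.6 and 11.7 CPM in TAZ4A, at 0.537, 0.574 and 0.626 CPM in TAZ-CAMTA1 and at 0.446, 0.289 and 0.243 CPM in control (difference −3.54 ± 0.11, adjusted p = 1.7e-07). On the other side, Prnd, which encodes the prion-like protein doppel, was at 0.804, 1.07 and 1.18 CPM in control. It stood at 8.45, 8.09 and 9.55 CPM in TAZ4A and 61.4, 50.9 and 63.5 CPM in TAZ-CAMTA1 (difference 2.68 ± 0.13, adjusted p = 2.2e-06). Prg2, the major basic protein of eosinophils, went from 6.71 ± 0.671 CPM in control (SD, n = 3) to 10.7 to 13.9 CPM in TAZ4A and 92.9 to 154 CPM in TAZ-CAMTA1. Psg22, a pregnancy-specific glycoprotein of a large gene family, went from 15.5 to 33.2 and 148 CPM. Ttyh1, a membrane protein of the tweety family, fell farther in TAZ4A, from 25.4 CPM to 2.39 CPM against 17.0 CPM in TAZ-CAMTA1. Of these genes Psg22, Prg2, Ttyh1, Axl and Siglecg lost the pooled call in the single-group fit (adjusted p = 0.062, 0.16, 0.17, 0.25 and 0.33). Prnd rose by 2.60 with TAZ4A alone against control and Cp by 3.30 with TAZ-CAMTA1.

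**Figure D4:**
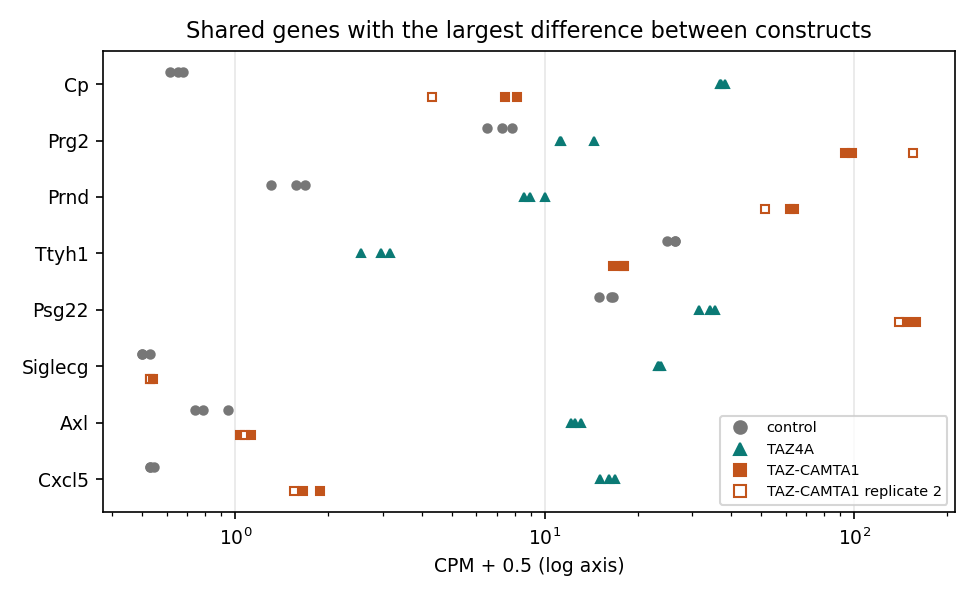
CPM + 0.5 on a log axis for the 8 shared genes with the widest difference between the constructs, 4 higher with each. Points are libraries, marked as in the plot of the largest changes. Siglecg, Axl and Cxcl5 have TAZ-CAMTA1 points close to the controls, and Prg2 and Psg22 have TAZ4A points close to them.

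Some shared genes lay side by side. There were 75 runs of at least 3 neighbouring tested genes that were shared in the same direction, 35 above and 40 below, and they held 255 genes. Of 13226 pairs of neighbouring tested genes, 485 were shared in the same direction, and 22.3% of all genes tested were shared. How many runs this share alone would give was not tested. The run of 9 on chromosome 1 (88055388 to 88220002) is the Ugt1a locus, whose transcripts share exons, so that its genes are not separate observations. On chromosome 5, from 90490737 to 90905938, Afp, Rassf6, Cxcl5, Pf4, Cxcl1 and Cxcl2 were above control, and all 6 rose. Chromosome 6, from 124430759 to 124636085, held Clstn3, C1rl, C1ra, C1s1 and C1s2, 4 of them encoding proteases of the complement C1 complex or close relatives, and all 5 rose. Chromosome 17 held Psmb9, Tap1, Psmb8 and Tap2 between 34181987 and 34216321, and chromosome 12 Serpina3f to Serpina3i between 104214544 and 104269372. The longest run below, on chromosome 12 from 90724552 to 95785215, held Dio2, Cep128, Gtf2a1, Sel1l and Flrt2, of which 2 fell. Neighbours may share reads where they overlap or are copies.

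By TPM the most abundant shared genes below control were mitochondrial, mt-Cytb from 6010 to 4300 (adjusted p = 0.00071), mt-Nd1 from 5460 to 4400 and mt-Nd2 from 2820 to 2160. Above control, after B2m and Ccl2, stood the surface protein Ly6a (1540 to 2160), the ligand Apln (1800 to 2130) and the tubulin Tubb5 (1450 to 1900). Apln (0.23, adjusted p = 0.029) lost its call in the single-group fit (adjusted p = 0.18) and with TPM (0.13). It also lost the call without any 1 of the controls (0.09 to 0.12), among other alternatives.

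Leaving out TAZ-CAMTA1 replicate 2 changed the count of shared genes more than leaving out any other library. With the 5 remaining TAZ libraries 4315 genes met the rule (32.3%), 2061 above (15.4%) and 2254 below (16.9%), so that 1336 were gained. Leaving out another TAZ library gained 102 to 268, and leaving out a control gained 326 to 598. In the pooled contrast 3550 genes then rose (26.6%) and 4003 fell (30.0%), and the median standard error went from 0.119 to 0.0575. In this fit 14 integrin and adhesion genes rose in place of 6 and 11 of the TGF-β and BMP list in place of 7. Falls numbered 9 in place of 3 for axon guidance, 7 in place of 3 for receptor tyrosine kinases and ligands, 8 in place of 4 for TGF-β and BMP, 5 in place of 1 for matrix and 3 in place of 1 for mesenchymal genes. A rule over fewer libraries is easier to meet, so a gain in itself shows nothing about that library.

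**Figure D5:**
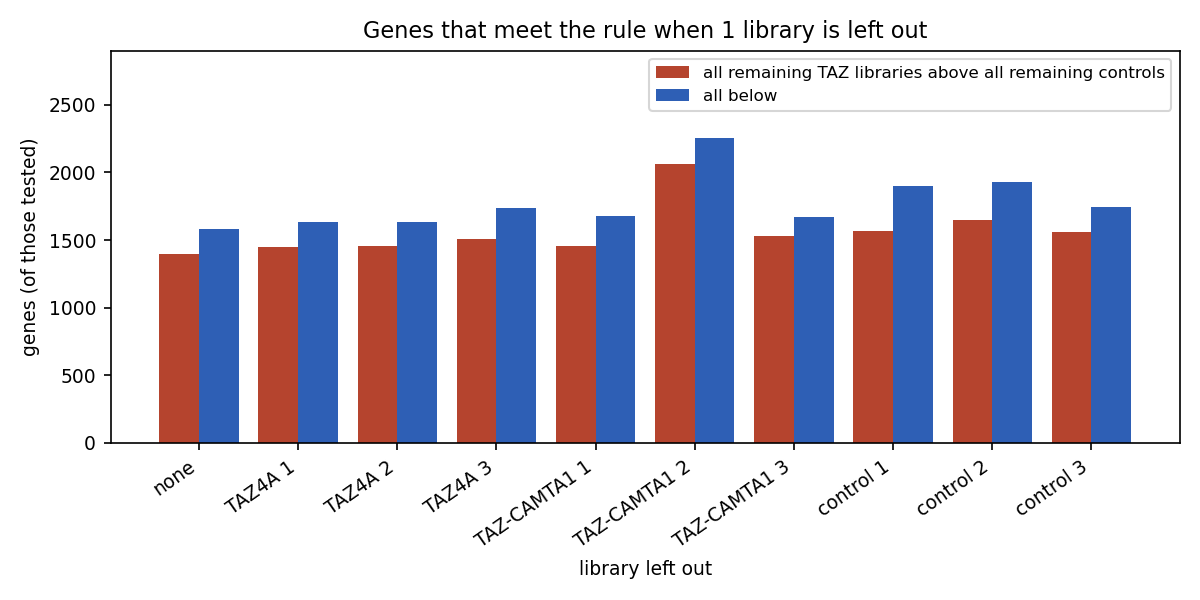
Number of tested genes that met the rule with all 9 libraries (none) and with each library left out in turn, red for genes above and blue for genes below control. Without TAZ-CAMTA1 replicate 2 the bars reach 2061 and 2254, the highest of the 10 pairs.

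In the second gene table, made with the iGenomes annotation from the same libraries, 1347 of 12350 genes tested were above (10.9%) and 1462 below (11.8%). Of the shared genes 2813 could be found and tested there, and 2633 met the rule in both tables, 95.7% of those above and 91.8% of those below. Reads across annotated splice junctions gave another count of the same libraries. Of 87 named shared genes 81 had at least 10 such reads, and 59 had no overlap between the 6 TAZ and 3 control libraries in the same direction, while 0 did in the opposite one. These reads come from the libraries whose values chose the genes, so the counts are a description and no support. Wwtr1 was not among the 59 (144 ± 19.8 against 97.7 ± 28.7 junction reads scaled to the library's junction total, SD), nor was Ccnd2 (7.45 ± 1.34 against 22.9 ± 8.17). Itga9, with 14 junction reads in all, showed no rise by them (0.189 ± 0.0286 against 0.185 ± 0.153). Others that overlapped included Sox7, Hk2, Kit, Nrp2, Hes1, Cdc20, Pdgfra, Robo4 and Axl.

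At the edge of the rule the values were close. Polr2e, a subunit shared by the RNA polymerases, was just inside, at 50.8, 50.2 and 44.2 CPM in control and 50.9 to 97.2 CPM in the TAZ libraries. Bcar3, an adaptor of integrin signalling, was just outside, at 17.4 to 19.3 CPM in control and 19.3 to 25.0 CPM in the TAZ libraries. Its pooled call (0.25) was lost in the single-group fit (adjusted p = 0.21). Below control, Lmnb2, a nuclear lamin, was just inside (36.0 to 36.9 against 28.3 to 36.0 CPM, the nearest pair differing beyond the digits given) and Polr3f, a subunit of RNA polymerase III, just outside (46.9 to 51.1 against 24.3 to 46.9 CPM).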

How the data were processed

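RNA of 9 MS1 libraries (3 groups of 3, from the sample titles) was prepared with a stranded kit and sequenced on an Illumina HiSeq, per the labels' protocols. The submitters' processing notes name bcl2fastq, FastQC, STAR, featureCounts and edgeR and the build mm10, with versions, settings and use of strand not given in the sources used here, so overlapping and antisense genes may share reads. The deposited gene values, named CPM by the authors, are a signal: they sum to 973009 to 1034033 per library, and 100% were whole multiples of 1 read within 0.01 read. The planned test for CPM was kept, and whole reads were recovered for edgeR 4.0.16 and DESeq2 1.42.0 as alternatives. The authors' deposited TPM were another alternative, and the deposited junction files hold read counts per intron (6410070 to 9889541 unique reads per library). Transcript tables and the authors' comparisons were not used.

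The main test was limma 3.58.1 (R 4.3.3; lmFit, then eBayes with its trend and robust options) on log2(CPM + 0.5), for genes that reached 0.5 CPM in 3 or more libraries. All 9 libraries entered a fit of 3 groups (6 residual degrees of freedom), two-sided, with Benjamini-Hochberg adjustment over all 13346 genes tested and a threshold of 0.05. The procedure was run on simulated reads in which the changed genes moved alike in both constructs and no library stood apart. That run does not cover a library such as TAZ-CAMTA1 replicate 2 or genes that differ between the constructs. Junction reads were compared by the same rule of no overlap, and the exact permutation tests planned on them are not reported, since the same libraries chose the genes. Symbols and coordinates came from GENCODE vM21 on the same build (23439 of 23744 identifiers), promoters from RefSeq GRCm38.p6. Depth and standard errors set the precision given beside the values.

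The shared genes, the 21 gene lists and the naming rule were chosen with earlier results of these data known. Named were the 12 rises and 12 falls with the largest smaller-of-both change, the Wwtr1, Camta1, Yap1 and TEAD genes, up to 2 called genes per list and direction, the 4 genes highest with each construct over the other, and those at the edge of the rule. Other list members and the genes in runs were named after their values were seen, as examples. A few genes that the naming rule or the lists hold are counted but not reported here. Matching to the iGenomes table was widened to synonyms after a first look, since renamed genes such as Ccn1 had been missed. That moved genes in both tables from 1205 to 1240 above and from 1341 to 1393 below, and brought Rtl8a and Rtl8b into the 12 falls. Alternatives were other pseudocounts, filters, scalings, units, tables and tools, library weights, a single TAZ group, a replicate block and each library left out.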

Additional observations from a re-analysis of the deposited data

Results flagged for a closer look

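Among the 6 TAZ libraries, taken as 1 side although they hold 2 constructs, 8 of 93 named genes had a single library far from the other 5, and in all 8 it was TAZ-CAMTA1 replicate 2. Of the 8, 7 are given here. The usual chance rate of about 1 in 20 holds for 6 values of a single group, so it does not apply to a side of 2 constructs. Genes of 1 library do not count as separate cases. In that library Ccl2 was at 985 CPM against 781 to 853 in the other 5, Cdkn2b at 38.0 against 23.9 to 28.6 and Polr2e at 97.2 against 50.9 to 55.8. It was low for Ccnd2, at 70.2 CPM against 162 to 173, and for Pdgfra, at 4.30 against 7.76 to 9.20. Yap1 was at 226 CPM there against 320 to 370, and Tead1, which was not shared, at 84.2 against 177 to 231. Its ribosomal protein share of reads was 3.70%, and the part of this in these values was not tested.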

How the results depend on the processing

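The counts of shared genes stayed within 1.5 times under the alternatives that can change them, with ranges over single libraries left out of 1448 to 2061 above and 1633 to 2254 below. The counts of the pooled contrast moved with how the spread was estimated and, less, with the scale (2124 rose and 1128 fell with equal library sums). With the 6 TAZ libraries as 1 group, where the difference between the constructs enters the spread, 638 rose and 427 fell. With library quality weights 3381 rose, 3799 fell and 1760 shared genes differed between constructs. Over single libraries left out, 1340 to 3550 rose, 848 to 4003 fell and 780 to 2247 genes meeting the rule differed between constructs. The highest of each came without TAZ-CAMTA1 replicate 2, and 877, 866 and 848 fell without control replicates 1, 2 and 3. The cause was not tested. edgeR gave 1860 and 1347, DESeq2 2114 and 1742.

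With the replicate number as a block 1783 rose, 1362 fell and 993 shared genes differed. Same-numbered libraries correlated between −0.28 and 0.464 in their deviations from the group means. Differently numbered libraries of different groups correlated between −0.531 and 0.586. These values do not settle whether the numbers pair the samples. Of 2044 values of genes named by the rule under the alternatives, 1981 kept direction and call, 42 lost the call, 21 gained it and 0 changed direction. Of 84 called genes 24 lost the call under at least 1 alternative, most of them in the fit with a single TAZ group. Of 236 called list members 146 did so, 139 of them in that fit. Genes of a few reads, such as Siglecg in TAZ-CAMTA1, are limited by depth.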
